A study of Mus musculus with 6 samples.

Results

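Plasma cells were chosen by their raw UMIs (unique molecular identifiers, each counting 1 captured mRNA molecule). A cell was taken as a plasma cell when it held at least 10 Jchain, 2 Mzb1 and 2 Xbp1 UMIs, no Siglech, Cd3d, Cd3e or Cd3g UMI, and at most 5 UMIs of C1qa, C1qb and C1qc together. These limits selected 79 of the 51633 cells that had at least 250 genes and at most 5% mitochondrial UMIs. The single-cell RNA-seq data (10x Genomics 3′ chemistry) came from 6 libraries of 1 mouse each, and the methods describe tumors of KPCA, an ovarian cancer line of mice with intact homologous recombination, grown in the ovarian bursa of female C57BL/6 mice. All 6 mice therefore carried the same tumor model. The control mouse received solvent and rat IgG. The 2DG mouse received 2-Deoxy-D-glucose, a glucose analog that interferes with glycolysis and with N-glycan assembly. The 2FF mouse received 2F-Peracetyl-Fucose, a fucosylation inhibitor, orally, and its tumor cells had been treated with 2FF before injection. A mouse given anti-PD-L1, a checkpoint-blocking antibody, and 1 mouse for each of the 2 combinations completed the design. Both drugs share the control and the anti-PD-L1 library as their references. The labels name lymph node as the tissue, and the libraries held 1077 cells that passed a B cell gate and 49 keratin-positive cells without Ptprc. The design text of the series speaks of both young and aged animals, no label gives the age of a mouse, and the methods describe a single age range, so that age cannot be told apart from treatment here. With 1 mouse per group no test between treatments was possible, and the intervals below cover counting error only.

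Plasma cells are the antibody-secreting end stage of the B cell lineage. Xbp1, Prdm1 and Irf4 direct their differentiation, in which the B cell program of Pax5 and Bach2 is turned off and the endoplasmic reticulum (ER) expands to fold and export immunoglobulin. The unfolded protein response supports this expansion, in part through the ER stress response element (ERSE) and the unfolded protein response element (UPRE) in promoters of chaperone genes. J chain, the product of Jchain, links IgA dimers and IgM pentamers, and in ovarian tumors plasma cells of the IgA and IgG classes are both known.

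The libraries held between 61859753 and 73885214 UMIs. The median plasma cell held 19325 UMIs (range, 5901 to 40846) and 3063 genes, whereas the median B cell held 5488 UMIs. Of 316 barcodes that recurred in more than 1 library, none belonged to a plasma cell. The markers fit the label: Mzb1, a chaperone of immunoglobulin assembly, and Jchain were required by the limits, whereas Derl3, a component of ER-associated degradation, and Sdc1, which encodes the plasma cell surface proteoglycan CD138, were not. Derl3 was detected in 68 of the 79 cells and Sdc1 in 55. The same 2 genes were detected in 0.929% of B cells each, at a lower depth, and after every cell was thinned to 1000 UMIs the shares were 17.2% against 0.166% for Derl3 and 9.06% against 0.149% for Sdc1. As CPM (counts scaled to a fixed total, here of non-immunoglobulin UMIs), Sdc1 ranged from 126 in the 2FF plus anti-PD-L1 library to 182 in the 2DG plus anti-PD-L1 library. Sdc1 levels were thus close to each other in all 6 libraries, with overlapping counting intervals.

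Some cells lay near the limits. Just inside, 1 cell of the 2DG plus anti-PD-L1 library had 13 Jchain and 2 Xbp1 UMIs, and 1 of the anti-PD-L1 library had 24 Jchain UMIs. Just outside the limits on Jchain, Mzb1 and Xbp1 were 6 cells with immunoglobulin constant UMIs, of which 5 had too few Mzb1 or Xbp1 UMIs and 1, in the 2DG plus anti-PD-L1 library, had 5 Jchain UMIs and 3735 immunoglobulin constant UMIs. The 2 low-Jchain cells inside the limits also had the lowest immunoglobulin shares of all members, 2.85% and 3.37% of their UMIs. The cell of the anti-PD-L1 library had 13 Ms4a1 and no Sdc1 UMIs, and B cell identity genes made up 2.41% of its non-immunoglobulin UMIs, close to the 2.49% of B cells. It is 1 of the 4 IgM cells below, by 19 of only 24 heavy chain constant UMIs. The cell of the 2DG plus anti-PD-L1 library had 14 Ms4a1, 6 Derl3 and no Sdc1 or Prdm1 UMIs, and its B cell identity share was 1.18%. It counts below as an IgG cell, by 71 of 90 heavy chain constant UMIs, and as a cycling cell, with 390 cell cycle UMIs. Whether these 2 cells are plasma cells or B cells was not tested.

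More cells were lost at the limits on T cell and macrophage genes. Of 106 cells with enough Jchain, Mzb1 and Xbp1 UMIs and no Siglech UMI, 25 held a Cd3 UMI and 2 more held over 5 C1q UMIs. The 25 cells came from the 2FF (15), anti-PD-L1 (4), 2FF plus anti-PD-L1 (4), 2DG (1) and 2DG plus anti-PD-L1 (1) libraries, and none from the control library. Immunoglobulin took up 6.46% to 64.2% of their UMIs (median 26.3%), and the leading heavy chain gene was of the IgG class in 18 and Igha in 7. Of these cells 10 held 1 Cd3 UMI and 12 held more than 2, up to 23. Plasma cells with free T cell RNA and droplets that held a plasma cell with a T cell were not told apart.

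Plasma cells were rare in every library and most numerous under 2FF. They made up 0.0661% of cells in the control library (6 of 9075; 95% Clopper-Pearson interval, 0.0243% to 0.144%). They made up 0.358% in the 2FF library (33 of 9222; 0.246% to 0.502%), an interval that did not overlap with that of the control library. The control library stood apart in its makeup, with 23.6% neutrophils and 5.36% T cells, against 1.10% to 2.14% and 25.7% to 37.2% in the other 5 libraries. With neutrophils left out of the total the shares were 0.0866% (0.0318% to 0.188%) and 0.364% (0.250% to 0.510%), again without overlap. The anti-PD-L1 library had 0.170% (15 of 8801; 0.0954% to 0.281%), the 2DG library 0.117% (9 of 7703; 0.0534% to 0.222%) and the 2DG plus anti-PD-L1 library 0.133% (12 of 9026; 0.0687% to 0.232%). The intervals of these 3 libraries overlapped with that of the control, and that of the anti-PD-L1 library also overlapped with that of the 2FF library. The 2FF plus anti-PD-L1 library had 0.0512% (4 of 7806; 0.0140% to 0.131%), close to the control library. Its place in the order rests on the Cd3 limit: with no such limit it had 8 plasma cells (0.102%; 0.0443% to 0.202%) and the control library still 6, and with up to 2 Cd3 UMIs allowed it had 6 (0.0769%). The 2FF library remained the highest without the Cd3 limit, with 47 cells (0.510%; 0.375% to 0.677%). Treatment and mouse cannot be told apart in this design.

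**Figure D1:**
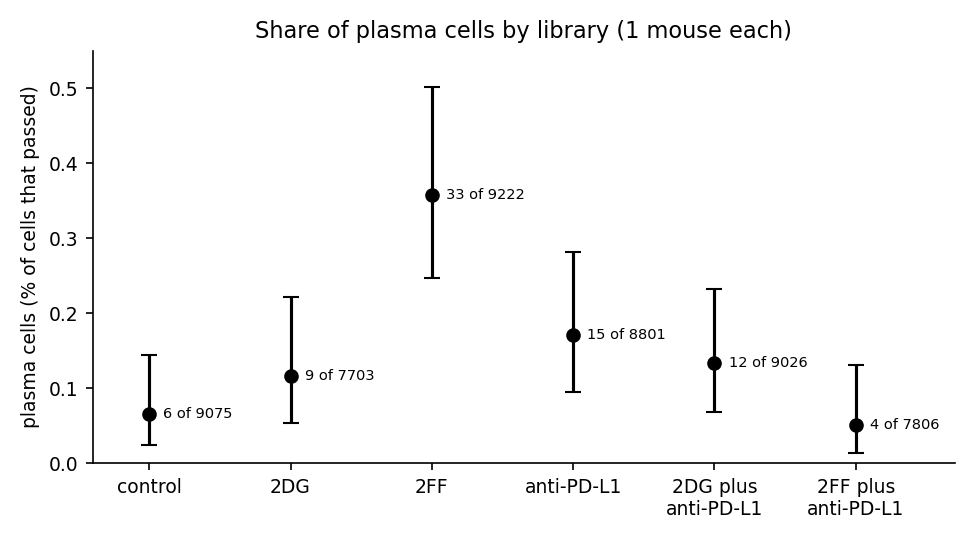
Plasma cells as a percent of the cells that passed the limits on genes and mitochondrial UMIs (y axis) in each of the 6 libraries (x axis), with points for the share and bars for its 95% Clopper-Pearson interval. The 2FF library stands highest at 0.358%, and the control (0.0661%) and 2FF plus anti-PD-L1 (0.0512%) libraries stand low with overlapping intervals.

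Relative to B cells the order was different. B cells numbered 47 in the control library and 238 in the 2FF library, and plasma cells per 100 B cells were 12.8 and 13.9, respectively. The 2DG library had 10.1 per 100 and the anti-PD-L1 library 8.52. The combinations had fewer plasma cells per 100 B cells, 3.36 in the 2DG plus anti-PD-L1 library with 357 B cells and 2.35 in the 2FF plus anti-PD-L1 library with 170. As a share of plasma and B cells together, the 2FF library had 12.2% (8.53% to 16.7%) and the 2FF plus anti-PD-L1 library 2.30% (0.630% to 5.78%), and these intervals did not overlap. Both classes of these ratios were held to 0 Cd3 UMIs. With no such limit on plasma cells the ratio was 19.7 per 100 B cells with 2FF, 4.71 with 2FF plus anti-PD-L1 and still 12.8 in the control library. With the limit lifted for B cells as well, the values were 16.4, 4.35 and 12.0. The shares of the 2FF (10.5% to 18.3%) and 2FF plus anti-PD-L1 (1.82% to 8.04%) libraries then still did not overlap, and those of the 2FF and control libraries overlapped under each of these limits.

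Immunoglobulin transcripts took up 37.7% of all UMIs counted over the 79 plasma cells. Summed per library, the share was 33.2% with 2FF, 36.7% with anti-PD-L1, 39.6% in the control library, 39.8% with 2DG plus anti-PD-L1, 45.2% with 2DG and 48.5% with 2FF plus anti-PD-L1. Single cells of a library were spread as well, from 6.49% to 62.9% with 2FF and, most narrowly, from 35.6% to 51.7% with 2DG. Over all libraries they ranged from 2.85% to 62.9%. The medians over cells ran from 37.6% to 48.0%. In 2FF, the library with the most plasma cells, the sum lay below the median of 37.6%. Heavy and light chain constant UMIs were correlated over the 79 cells (Pearson r = 0.844, Spearman rho = 0.868, as a description over cells that share libraries and depth).

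**Figure D2:**
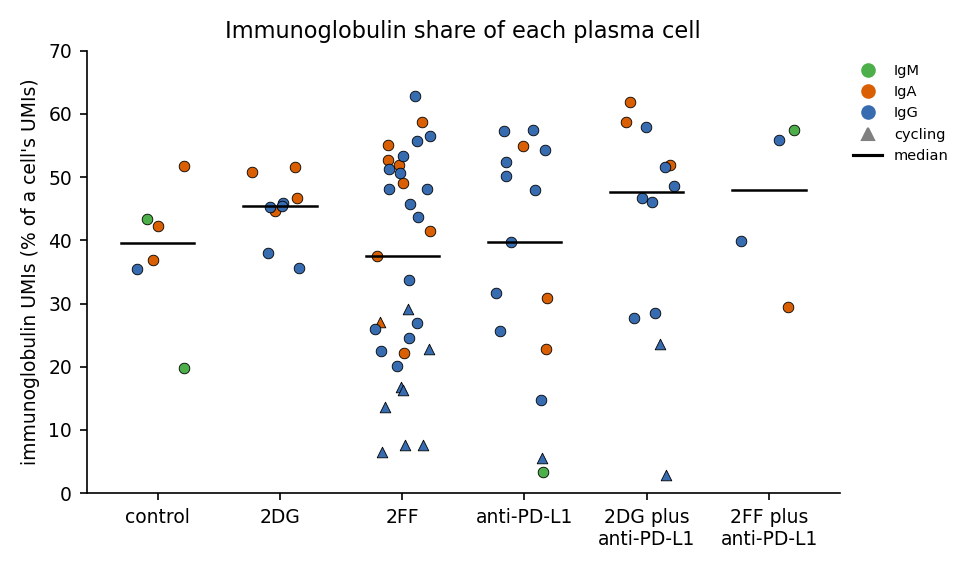
Immunoglobulin UMIs as a percent of each plasma cell's UMIs (y axis) by library (x axis), with 1 point per cell coloured by heavy chain class, triangles for cycling cells and a bar for the median. Cells range from 2.85% to 62.9%, and the cycling cells all lie under 30%.

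Most plasma cells had switched to IgG or IgA. The heavy chain class, which the selection did not use, was taken from the constant gene with at least 50% of a cell's heavy chain constant UMIs. By this rule 52 cells were IgG (65.8%; 54.3% to 76.1%), 23 were IgA (29.1%; 19.4% to 40.4%) and 4 were IgM (5.06%). The IgG cells were 42 Ighg2c, 6 Ighg2b and 4 Ighg1 cells, with no cell led by Ighg3. Ighg2c (GRCm38 chr12:113285325-113288932, reverse strand) encodes the IgG2c of C57BL/6 mice, and Igha (chr12:113254830-113260236, reverse strand) encodes the IgA heavy chain. In 58 cells at least 99% of the heavy chain constant UMIs came from a single gene, and in 77 cells at least 90%. The light chain was kappa, from Igkc, in 78 cells and lambda, from Iglc1, in 1 cell of the 2FF library.

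IgG cells outnumbered IgA cells in 5 of the 6 libraries. The 2FF library had 24 IgG and 9 IgA cells, and the anti-PD-L1 library 11 IgG, 3 IgA and 1 IgM cells. The 2DG plus anti-PD-L1 library had 9 IgG and 3 IgA cells and the 2DG library 5 and 4. In the control library, the exception, 3 cells were IgA, 2 IgM and 1 IgG, and in the 2FF plus anti-PD-L1 library 2 were IgG, 1 IgA and 1 IgM. All 6 libraries therefore held both classes, and no library besides 2FF held more than 11 IgG cells.

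Immunoglobulin RNA was present at a far lower level in T cells, where free RNA and shared droplets were not told apart. Jchain was detected in 0.412% of T cells of the control library and 1.66% of those of the 2FF library, with T cell median depths of 6412 and 5943.5 UMIs. Igkc was detected in 10.7% of T cells of the control library and 27.8% in the 2FF library. Its level there was 20.1 and 68.0 CPM of all UMIs, against 228538 and 202298 in the plasma cells of the same 2 libraries. Among T cells, Igkc was thus highest in the library with the most plasma cells. C1q macrophages of the 2FF library held 531 CPM of Igkc, but 2 droplets with both C1q and plasma cell genes gave 6345 of their 7014 Igkc UMIs and 886 of their 912 Jchain UMIs. Without these 2 droplets the macrophages had 50.8 CPM of Igkc and 1.98 CPM of Jchain, against 3.75 to 36.0 and 0.0797 to 1.38 CPM in the other 5 libraries.

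Variable (V) genes varied among the plasma cells. A V gene was called clear when it had at least 5 UMIs and at least 2 times those of the next gene, and germline V gene names were used with no junction sequence. A clear heavy chain V gene was found in 66 cells, from 31 genes, and a clear kappa V gene in 71 cells, from 30 genes. Ighv8-8 was the most common heavy chain V gene (8 cells in 3 libraries) and Igkv6-25 the most common kappa V gene (10 cells). In 30 Igkc cells the lambda gene Iglv1 had more UMIs than every kappa V gene, a mismatch that was not examined.

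The share of cell pairs with the same V genes was higher within mice than between them. Both V genes were clear in 59 cells, which carried 44 pairs, 33 of them in 1 cell only. Of 425 pairs of cells from 1 library, 15 shared both V genes (3.53%), against 4 of 1286 pairs of cells from different libraries (0.311%). Without the 2FF library the shares were 3 of 125 (2.40%) and 3 of 436 (0.688%). The share between libraries rested on few pairs, with 1 of 836 (0.120%) without the 2DG library and 1 of 1118 (0.0894%) without the 2FF plus anti-PD-L1 library. Pairs of cells share members, so no test was made of this difference.

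Some recurrent pairs joined IgA and IgG cells. Within 1 mouse, this was seen in the 2FF library only. That library gave most of the 425 pairs of cells from 1 library, with 125 left without it. A difference between libraries was not tested. Ighv1-53 with Igkv6-25 was found in an IgA, an Ighg2c and an Ighg2b cell. Ighv1-80 with Igkv4-68 was found in 2 IgA cells and 1 Ighg2c cell, and Ighv5-6 with Igkv10-96 in 2 Ighg2c cells and 1 IgA cell. The pairs Ighv1-69 with Igkv1-110 and Ighv8-8 with Igkv4-86 each joined 1 IgA with 1 Ighg2c cell. Most of these joins rest on V gene calls near the limits. The IgA cell with Ighv1-53 held 6 UMIs of it and 3 of the next gene. The IgA cell with Ighv5-6 held 8 UMIs of it, and the Ighg2c cell with Igkv4-68 held 7 of that gene. The IgA cell with Igkv1-110 held 23 UMIs of it and 10 of the next gene. Both cells with Ighv8-8 and Igkv4-86 had at least 16 UMIs of each gene and at most 1 of the next. In the 2DG library, 2 Ighg2c cells shared Ighv1-9 and Igkv5-43. Pairs of V genes also joined IgA and IgG cells of different mice, which cannot share a B cell. Ighv1-55 with Igkv17-121 was found in an IgA cell of the 2DG library and an Ighg2b cell of the 2FF plus anti-PD-L1 library, and Ighv1-76 with Igkv17-127 in 2 Ighg2c cells and 1 IgA cell of the same 2 libraries. Whether cells of 1 mouse with shared V genes descend from 1 B cell cannot be read without junction sequences.

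Among genes not annotated as immunoglobulin, the 20 with the highest ratio of plasma cells over the highest other class (with 10 CPM added to both) were a mixed set. One of them, Gm30211 (GRCm38 chr6:70719074-70740554), contains Igkc (chr6:70726435-70726966) on the same strand, so its counts (1524 CPM) are uncertain. These values describe the selected cells and are not tested, since the selection used genes of the same cells. Slpi, which encodes a secreted protease inhibitor, was the leading gene with 33694 CPM and UMIs in 76 of the 79 cells, and neutrophils were the next highest class at 820 CPM. Its level was 8976 CPM in the control library, 29253 with anti-PD-L1, 29558 with 2FF, 33153 with 2FF plus anti-PD-L1, 37744 with 2DG plus anti-PD-L1 and 65594 with 2DG. Single cells carried much of these levels: 1 cell held 84.8% of the Slpi UMIs of the 2FF plus anti-PD-L1 library and 1 held 51.3% of those of the control library. Without the leading cell of each library the level was 5585 CPM in the control library, 6857 with 2FF plus anti-PD-L1 and 53010 with 2DG.

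Of the 20 genes, Derl3, Mzb1, Creld2, Ssr4 and Txndc5 act in the ER. Derl3 had 297 CPM and Mzb1 4253 CPM, against 1.70 and 171 in B cells, the next class. Creld2, which encodes an ER stress-induced protein, had 573 CPM, against 46.0 in keratin-positive cells. Ssr4, a subunit of the translocon-associated complex, had 2451 CPM, against 252 in plasmacytoid dendritic cells. Most of the 20 genes have no such role, among them Prg2, Oosp1, Tex14, Enpp1, Gpm6a, Wdr17, Cacna1s, Ada and Cpeb3. Prg2, which encodes a granule protein of eosinophils, had 216 CPM in plasma cells and 0.0908 in C1q macrophages, the next class. Eaf2, a transcription elongation cofactor, had 586 CPM, against 34.5 in B cells, and Trp53inp1, a p53-induced gene, 1223 CPM, against 105 in T cells. Ccr10, the receptor for the epithelial chemokines Ccl27 and Ccl28, had 72.1 CPM, against 0.283 in B cells, and was detected in 19 cells. Of 3041 eligible genes, 207 were at least 2-fold above every other class and 65 at least 4-fold, on the same scale.

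The genes of the ER folding machinery were higher in plasma cells than in B cells as a group. Over 9285 genes with enough UMIs, 890 (9.59%) were at least 2-fold higher in plasma cells than in B cells and 1293 (13.9%) at least 2-fold lower, with a median log2 ratio of -0.14. Of 20 ER chaperone and folding genes, 17 were at least 2-fold higher and none at least 2-fold lower, with a median log2 ratio of 2.51. Together they made up 1.90% of the non-immunoglobulin UMIs of plasma cells and 0.298% of those of B cells. Per library, the plasma cell share was 1.26% with 2DG, 1.36% with 2DG plus anti-PD-L1, 1.62% with anti-PD-L1, 2.15% with 2FF, 2.22% with 2FF plus anti-PD-L1 and 3.16% in the control library. The 6 values all lay above the B cell value of the same library. Their order rests on single cells, since 1 control cell (7.83%) held 55.0% of the chaperone UMIs of its library and 1 cell with 2FF plus anti-PD-L1 (4.14%) held 73.2%. Without the leading cell of each library the shares were 1.83% in the control library, 0.981% with 2FF plus anti-PD-L1, 1.17% with 2DG and 2.14% with 2FF.

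Hsp90b1, the ER member of the HSP90 family (GRCm38 chr10:86690209-86705509, reverse strand), had 5012 CPM in plasma cells and 276 in B cells. Hspa5, which encodes the chaperone BiP (chr2:34771970-34777547, forward strand), had 2660 and 447 CPM. In plasma cells of the control library Hspa5 had 5979 CPM, in 2FF plus anti-PD-L1 3961, in 2FF 2922, in anti-PD-L1 1940, in 2DG plus anti-PD-L1 1884 and in 2DG 1357. The order of the libraries was again set by single cells. One control cell held 70.6% of that library's Hspa5 UMIs and 1 cell with 2FF plus anti-PD-L1 held 85.4%, and without them the levels were 2260 and 956 CPM. The median cell had 1086 CPM with 2DG and 1250 in the control library. Hsp90b1 had 8991 CPM in the control library, or 4443 without its leading cell, and 2741 with 2DG. Manf, an ER stress-induced secreted protein, had 1339 CPM in plasma cells and 101 in B cells. By library, Manf had 652 CPM with 2DG, 833 with 2FF plus anti-PD-L1, 871 with 2DG plus anti-PD-L1, 996 with anti-PD-L1, 1566 in the control library and 1840 with 2FF. One cell held 51.4% of the Manf UMIs of the control library and 1 held 60.6% of those with 2FF plus anti-PD-L1, and without them the levels were 977 and 540.2 CPM. The median cell had 838 CPM in the control library, 544 with 2DG and 1848 with 2FF.

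Promoters of 5 chaperone genes and of the ER degradation gene Derl3 are shown because each holds a sequence element of the unfolded protein response. The 250 bases before each RefSeq gene start (GRCm38.p6) were searched on both strands for ERSE, written as CCAAT, 9 bases and CCACG, and for the UPRE core TGACGTG. The motifs share letters, since the UPRE core reads CACGTCA on the other strand and ERSE ends in CCACG. ERSE was found in 7 of the 16 chaperone genes with a promoter (43.8%), namely Calr, Canx, Creld2, Dnajc3, Hsp90b1, Hspa5 and Pdia6, against 35 of all 27025 genes (0.130%). The UPRE core was found in Hspa5, Txndc11 and Txndc5, against 499 of all genes (1.85%). Of 13 ER degradation genes, 2 had ERSE, Derl3 and Syvn1, and of 21 translocation genes and 32 oxidative phosphorylation genes none did. A match says only that these letters are present. RefSeq starts can differ from those of the GENCODE annotation used for gene spans, so that the Txndc5 stretch and a part of the Hspa5 stretch lie before the RefSeq start but within the GENCODE span. The stretches below run 5′ to 3′ on the strand of the gene, with the ERSE parts or the UPRE core in capitals. They lie at chr2:34771923-34772053 for Hspa5 (forward strand), chr10:86705523-86705666 for Hsp90b1 (reverse strand), chr8:84847065-84847103 for Calr (reverse), chr15:88819510-88819548 for Creld2 (forward), chr10:75893232-75893270 for Derl3 (forward) and chr13:38528036-38528062 for Txndc5 (reverse).
Hspa5: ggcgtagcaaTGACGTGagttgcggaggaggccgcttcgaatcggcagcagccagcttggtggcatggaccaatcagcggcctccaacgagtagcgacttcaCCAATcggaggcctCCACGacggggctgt
Hsp90b1: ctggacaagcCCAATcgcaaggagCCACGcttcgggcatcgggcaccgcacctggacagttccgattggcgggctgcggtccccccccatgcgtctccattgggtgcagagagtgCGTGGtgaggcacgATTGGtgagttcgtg
Calr: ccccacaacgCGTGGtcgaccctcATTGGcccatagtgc
Creld2: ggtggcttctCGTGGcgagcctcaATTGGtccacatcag
Derl3: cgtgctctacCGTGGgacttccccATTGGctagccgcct
Txndc5: gcctcgccgcTGACGTGgcgctagccg

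Hspa5 carried 1 ERSE and 1 UPRE core, and Hsp90b1 carried 2 ERSE, 1 in each direction. Txndc5, which had the UPRE core and no ERSE in this window, is described again below.

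The steps around folding had the same direction. Of 27 translocation genes, which bring nascent chains into the ER and cleave and glycosylate them, 22 were at least 2-fold higher in plasma cells than in B cells and 1 lower. All 15 ER degradation genes were at least 2-fold higher, as were 17 of 21 genes of transport between the ER and the Golgi. Lman1, a cargo receptor of that transport, had 719 CPM against 23.2 in B cells, and Herpud1, a stress-induced degradation factor, 1048 against 89.5. Oxidative phosphorylation genes encoded in the nucleus were 22 of 39 at least 2-fold higher and none lower. Glycolysis genes, in contrast, showed no such difference, with none of 18 higher and 2 lower and a median log2 ratio of -0.02. Over all genes, 9.59% were at least 2-fold higher and 13.9% lower. These are ratios between the selected cells and B cells and carry no test.

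**Figure D3:**
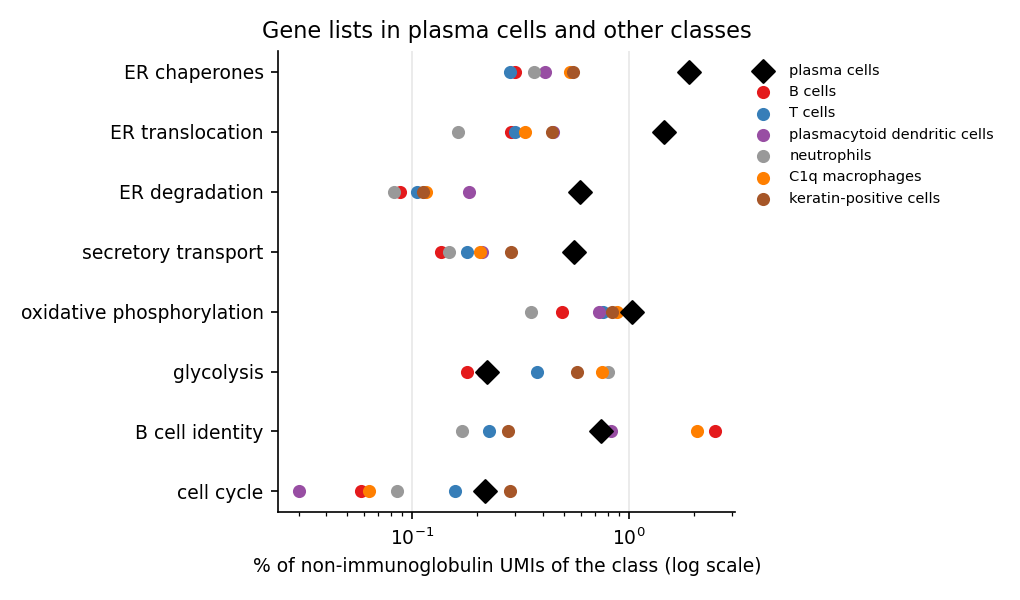
Summed UMIs of 8 gene lists as a percent of the non-immunoglobulin UMIs of each cell class (x axis, log scale), with diamonds for plasma cells and circles for the other 6 classes. Plasma cells stand to the right of every other class for the 4 ER and secretory lists (1.90% against 0.298% in B cells for ER chaperones), and to the left of B cells for B cell identity.

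B cell identity genes were at least 2-fold lower for 17 of 20 tested and higher for none, against 13.9% and 9.59% over all genes. Pax5, the factor that maintains B cell identity, had 13.6 CPM in plasma cells, from 3 cells, and 957 CPM in B cells. Bach2, a repressor of plasma cell differentiation, had 87.8 and 2220 CPM. Ms4a1, which encodes CD20 and was used to select B cells, had 93.0 and 686 CPM. Cd79a, a gene of this list, was used to select B cells as well, so the count was in part set by that selection. Not all of the list was low: Cd74, the invariant chain of antigen presentation, had 4216 CPM in plasma cells and 6281 in B cells, and every plasma cell held Cd74 UMIs. The plasma cell factors Prdm1 and Irf4 had 265 and 410 CPM, against 20.7 and 195 in B cells.

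Receptors for survival, homing and regulation were mixed. Of 14 survival genes tested, 4 were at least 2-fold higher than in B cells and 2 lower, against 9.59% and 13.9% over all genes. Tnfrsf17, which encodes the survival receptor BCMA (GRCm38 chr16:11313812-11320074, forward strand), had 67.9 CPM in plasma cells and 0.283 in B cells, and Cd28, a costimulatory receptor, 79.4 and 2.69. Of 13 homing genes, 2 were at least 2-fold higher than in B cells and 8 lower. Cxcr3, the receptor for interferon-induced chemokines, had 106 CPM against 14.9, whereas Cxcr4, which retains plasma cells in bone marrow, had 43.9 against 146. The gut homing receptor Ccr9 had 1 UMI in all 79 cells. Itga4, an integrin subunit, differed little, at 797 and 632 CPM.

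Of 18 genes of immune regulation tested, 3 were at least 2-fold higher in plasma cells than in B cells and 7 lower. Over all genes the shares were 9.59% higher and 13.9% lower. Cd274, of the same list, encodes PD-L1, the target of the antibody given to 3 of the mice. It had 702 CPM in plasma cells and 462 in B cells. Its level in plasma cells was 378 CPM with 2FF plus anti-PD-L1, 459 with 2DG plus anti-PD-L1, 552 in the control library, 693 with anti-PD-L1, 743 with 2FF and 1089 with 2DG. The values with and without the antibody overlapped, and 1 cell held 93.3% of the Cd274 UMIs with 2FF plus anti-PD-L1. Il10, an inhibitory cytokine, was low (33 UMIs in 15 cells). Stress and activation lists were higher in plasma cells for a part of their members. Of 13 integrated stress response genes tested against B cells, 6 were at least 2-fold higher and 1 lower, and of 17 immediate early and heat shock genes, 7 were higher and none lower. The latter list reached 3.16% of the non-immunoglobulin UMIs in plasma cells of the control library, against 1.22% to 1.93% in those of the other 5. B cells of the control library were also the highest of the 6 for this list, at 1.13% against 0.646% to 0.856%.

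N-glycan and fucose genes, the pathway that 2FF acts on, were at a like total in plasma and B cells, 0.403% and 0.420% of non-immunoglobulin UMIs. Of 18 tested, 4 were at least 2-fold higher in plasma cells and 2 lower, against 9.59% and 13.9% over all genes. Fut8, which adds core fucose to N-glycans, including those of IgG, had 745 CPM in plasma cells and 108 in B cells. Its level was 676 CPM with 2FF, 705 with 2DG, 757 with 2FF plus anti-PD-L1, 775 with anti-PD-L1, 844 with 2DG plus anti-PD-L1 and 939 in the control library. These values lay within a narrow range. Mgat5, which starts a branch of complex N-glycans, was lower in plasma cells, with 29.3 CPM against 179. Mgat3 and Fut9 had no UMI in plasma cells, which allows a level of up to 3.14 CPM (3 counts of the total).

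Cycling cells formed a separate set among the plasma cells. A cell was called cycling with at least 50 UMIs of 18 cell cycle genes, and the limit fell in a gap, since no cell lay between 12 and 64 UMIs. By this rule 12 of the 79 cells were cycling (15.2%; 8.10% to 25%). They were 9 of the 33 cells of the 2FF library, 2 of the 12 cells with 2DG plus anti-PD-L1 and 1 of the 15 with anti-PD-L1. The other 3 libraries had none, which with 6 (control), 9 (2DG) and 4 cells (2FF plus anti-PD-L1) allows shares of up to 45.9%, 33.6% and 60.2% (Clopper-Pearson). Cycling shares were not tested between libraries. With no Cd3 limit, cycling cells were 1 of 8 with 2FF plus anti-PD-L1, 3 of 19 with anti-PD-L1 and 10 of 47 with 2FF, so that the zero in 2FF plus anti-PD-L1 rests on that limit. Of the cycling cells 11 were IgG and 1 was IgA.

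Cycling plasma cells held a lower share of immunoglobulin RNA. Their immunoglobulin share had a median of 15% (2.85% to 29.1%), against 46.0% (3.37% to 62.9%) in the other 67 cells. They held a median of 4887 genes and 25086.5 UMIs, against 2750 genes and 18524 UMIs. Immunoglobulin and cell cycle shares were inversely related over the 79 cells (Pearson r = -0.615, Spearman rho = -0.383, as a description over cells that share libraries). Mki67, a proliferation marker, had 691 CPM with 2FF and 561 with 2DG plus anti-PD-L1, against 44.7 in the control library. One cell gave 54 of the 83 Mki67 UMIs with 2DG plus anti-PD-L1, the cell just inside the limits with 13 Jchain UMIs, and without it that level was 260.2 CPM.

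**Figure D4:**
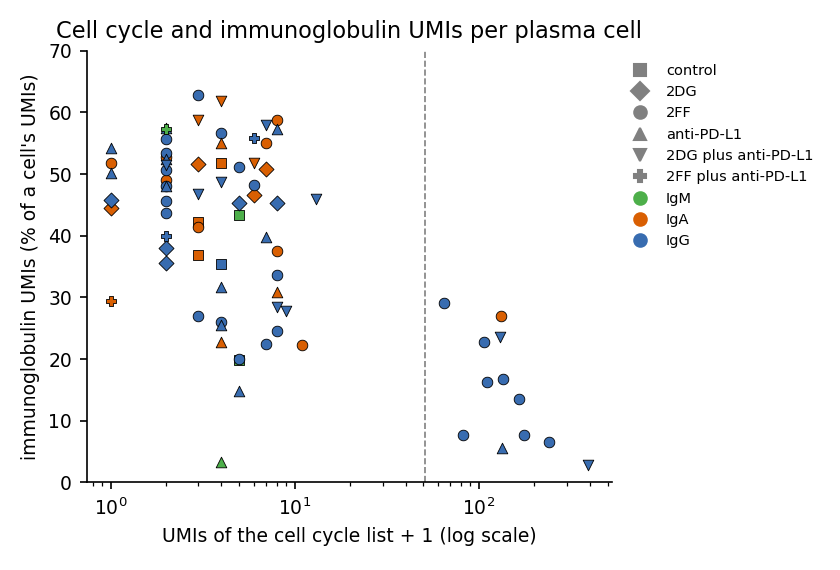
Immunoglobulin UMIs as a percent of each plasma cell's UMIs (y axis) against UMIs of the 18 cell cycle genes with 1 added (x axis, log scale), with shapes for the 6 libraries, colours for the heavy chain class and a dashed line at the limit for cycling cells. The 12 cells to the right of the line all lie under 30% immunoglobulin.

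IgA and IgG plasma cells were next compared, since both classes occurred in every library. Counts were summed per library and class, which gave 12 sums, and tested with edgeR's quasi-likelihood test with the library as a block. All immunoglobulin genes and Jchain were left out, so the genes that define the classes do not enter. The comparison was added after the data had been examined, the classes are not groups of the study, and the smallest sums hold 1 cell. Of 1087 genes tested, 1 (0.0920%) was higher in IgA cells and 2 (0.184%) were lower, at an adjusted p below 0.05. Gm42418, a gene that overlaps ribosomal RNA, moved with the class: it had 84340 CPM in IgA and 42455 CPM in IgG cells and was higher in IgA cells of all 6 libraries, with a log2 fold change of 0.86 ± 0.30 (SE) and an adjusted p of 0.49 in edgeR and 0.0253 in DESeq2. Cmss1, Camk1d and Lars2 were higher in IgA cells of all 6 libraries as well, and edgeR called none of them, whereas DESeq2 also called Cmss1 (adjusted p = 0.0495). Gm42418 is part of the total that scales each CPM, and the part of these genes in the differences below was not tested.

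Txndc5, an ER protein disulfide isomerase (GRCm38 chr13:38500079-38528824, reverse strand), was higher in IgA cells of all 6 libraries. In IgA cells it had 1862 CPM with 2FF, 1947 with anti-PD-L1, 2378 in the control library, 2543 with 2DG, 2595 with 2FF plus anti-PD-L1 and, at the top, 3292 with 2DG plus anti-PD-L1. In IgG cells it had 94.5 CPM in the control library, 248 with anti-PD-L1, 432 with 2FF, 485 with 2DG plus anti-PD-L1, 730 with 2FF plus anti-PD-L1 and 1485 with 2DG. The 2 ranges did not overlap. The log2 fold change was 2.16 ± 0.36 (SE; edgeR, adjusted p = 0.0319), and UMIs were found in 22 of 23 IgA cells and 45 of 52 IgG cells. Without the library block the adjusted p was 0.0652, and it also exceeded 0.05 when the 2FF, anti-PD-L1 or 2DG plus anti-PD-L1 library was left out (0.139, 0.279 and 0.247).

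Slpi (GRCm38 chr2:164354070-164389095, reverse strand), the leading gene of plasma cells as a whole, was lower in IgA cells of 5 of the 6 libraries. IgA cells had 3992 CPM with 2FF plus anti-PD-L1, 5526 with anti-PD-L1, 9000 with 2DG plus anti-PD-L1, 10247 with 2FF, 10438 with 2DG and 14722 in the control library. IgG cells had 13987 CPM in the control library, from 1 cell, 34508 with 2FF, 38746 with anti-PD-L1, 44612 with 2DG plus anti-PD-L1, 49627 with 2FF plus anti-PD-L1 and 97801 with 2DG. The control library was the exception, and besides it the ranges were apart. The log2 fold change was -2.40 ± 0.47 (SE; edgeR, adjusted p = 0.0467). The median cell had 8324 CPM among IgA cells and 29869 among IgG cells, and the 4 IgM cells held between 0 and 233 CPM. The control library, with the lowest Slpi level above, was also the only library in which IgA cells outnumbered IgG cells. Its 1 IgG cell had the lowest of the IgG values too, and the part of the classes in its level was not tested.

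Ly6c2, which encodes a surface antigen of plasma cells and other leukocytes, was also lower in IgA cells, by a log2 fold change of -2.16 ± 0.42 (SE; edgeR, adjusted p = 0.0467). Over all cells it had 570 CPM in IgA and 1680 CPM in IgG cells. It was lower in 5 of the 6 libraries, with the 2FF library as the exception at 773 and 744 CPM. Ly6c2 has a near-identical paralog, Ly6c1, so its counts are uncertain. Each of Slpi and Ly6c2 lost its call in 5 of the 6 fits that left out 1 library, with no change of sign.

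Jchain was required by the selection and is given without a test. It had between 23789 and 49202 CPM of all UMIs in IgA cells of the 6 libraries and between 4456 and 15641 in IgG cells. The ranges were apart, with a mean log2 difference within libraries of 2.14 ± 0.84 (SD, n = 6).

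Ccr10 and Tnfrsf17 had too few UMIs for the filter on low counts and were singled out after their values had been seen. Ccr10 (GRCm38 chr11:101172997-101175443, reverse strand) had 56 UMIs in 14 of 23 IgA cells and 13 UMIs in 5 of 52 IgG cells, although the median IgA cell held fewer non-immunoglobulin UMIs (9229 against 11295). IgG cells of 4 libraries had no Ccr10 UMI, whereas IgA cells of all 6 had at least 2. In the fit without the filter, over 13671 genes, the log2 fold change was 3.66 (edgeR, adjusted p = 2.21e-05). The p-values of that fit are not on the footing of the filtered one, since Slpi moved from an adjusted p of 0.0467 to 6.55e-14. Tnfrsf17 had 46 UMIs in 18 of 23 IgA cells and 18 UMIs in 11 of 52 IgG cells, with a log2 fold change of 2.66 in that fit (adjusted p = 0.00789). The same fit called 10 genes in all. Among those lower in IgA cells were Bank1, a B cell scaffold protein (3 UMIs in IgA and 145 in IgG cells, log2 fold change -3.87), and Ccl6, a myeloid chemokine (1 and 84 UMIs, -4.25), and their part in the values of Ccr10 and Tnfrsf17 was not tested. T cells, at a median of 6295 UMIs, held Ccr10 in 0.0420% and Tnfrsf17 in 0.0140% of cells.

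**Figure D5:**
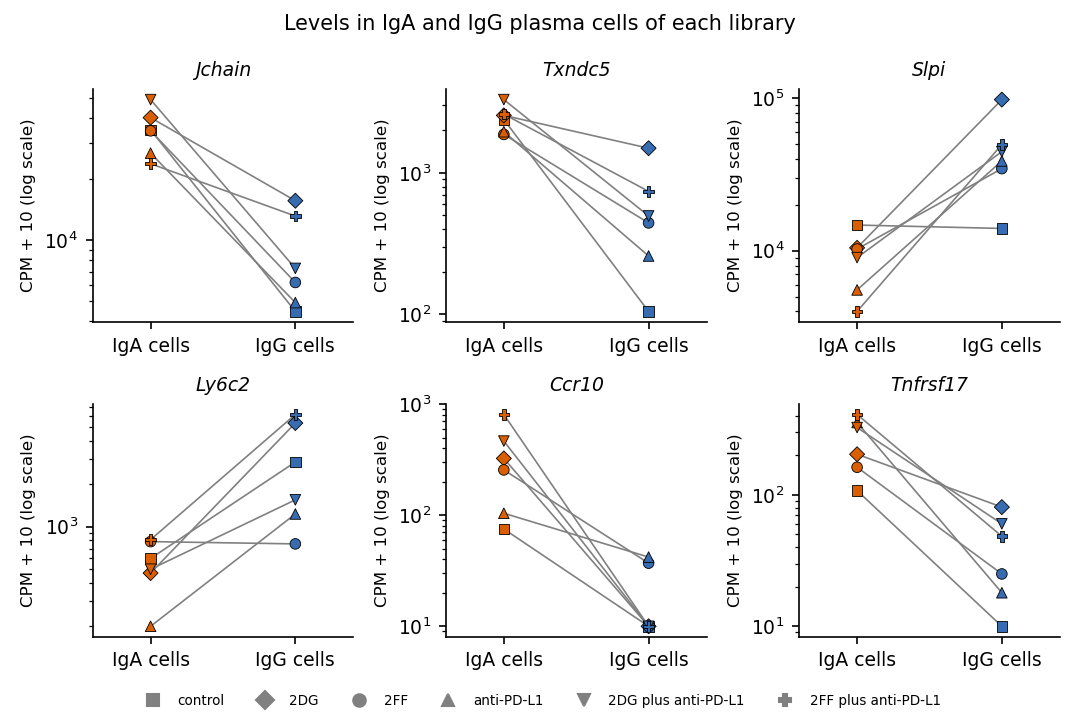
Levels of 6 genes in IgA and IgG plasma cells of each library, as CPM with 10 added (y axes, log scale, of all UMIs for Jchain and of non-immunoglobulin UMIs for the others), with lines that join the 2 classes of 1 library. Txndc5, Jchain, Ccr10 and Tnfrsf17 are higher in IgA cells of all 6 libraries, and Slpi and Ly6c2 are lower in 5 of 6.

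Few genes of the lists passed the test between the classes, as over all 1087 genes tested (0.092% higher and 0.184% lower in IgA cells). At these shares, a list with no call is not a result about that list. Of 19 ER chaperone genes tested, only Txndc5 passed the test, and the median log2 fold change was 0.01, against -0.01 over all genes. Of 11 plasma cell identity genes only Txndc5, which both lists hold, passed, with a median of 0.52. Sdc1 was higher in IgA cells of all 6 libraries, with a log2 fold change of 0.99 and an adjusted p of 0.53 (edgeR). No gene of the translocation (23 tested), ER degradation (13), secretory transport (16) or oxidative phosphorylation (33) lists passed, and the medians of these lists were between 0.01 and 0.14. Lists with medians further from that of all genes were B cell identity (-0.40, 7 genes tested), N-glycan and fucose genes (-0.29, 7 genes), glycolysis (-0.22, 4 genes), plasma cell markers (0.49, 3 genes) and plasmacytoid dendritic cell genes (0.58, 3 genes), and no gene of these passed.

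Markers of other cells were summed in the plasma cells, where the selection itself kept Siglech and Cd3 genes at 0 and C1q genes at 5 UMIs or fewer. The T cell and macrophage lists, at 0.00763% and 0.0480% of non-immunoglobulin UMIs, were therefore in part set by the rule. Neutrophil genes, which it did not use, made up 0.00178%, against 0.0256% in B cells. Tumor epithelial genes made up 0.0125% and were above B cells (0.00174%) in all 6 libraries. Epcam, an epithelial adhesion gene, gave 115 of the 120 UMIs of that list, in 48 plasma cells, whereas Krt18 had 3 UMIs and Krt8 none. Plasmacytoid dendritic cell genes made up 0.155%, against 0.136% in B cells, with Siglech held at 0 by the rule. General myeloid genes made up 0.156%, against 0.178% in B cells, and 233 of these UMIs lay in 1 cell of the anti-PD-L1 library. Cells with under 10% immunoglobulin UMIs or over 20 general myeloid UMIs numbered 21, of which 17 were IgG and 3 IgA. Without them edgeR again called Txndc5 (log2 fold change 2.48, adjusted p = 0.000258), Slpi (-2.60, adjusted p = 0.0325) and Ly6c2 (-2.52, adjusted p = 0.00198).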

How the data were processed

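Each of the 6 libraries was deposited as whole-number UMI counts with no normalization by the authors, for 57078 barcodes in all (10x Chromium 3′ v3.1, mm10 reference). The matrix headers name Cell Ranger 7.0.0 and the submitters' processing notes 3.1.0. Cells with at least 250 genes and at most 5% mitochondrial UMIs were kept. Doublets were not called, and a stricter marker gate was tried instead. Members, gene lists and named genes (those of the selection and of the lists, constant genes, and the 20 highest over other classes) were chosen with earlier results of these data known. Non-immunoglobulin genes are in CPM of non-immunoglobulin UMIs, with Jchain left out, and immunoglobulin genes and Jchain in CPM of all UMIs. Since UMIs of 3′ ends count molecules, no length scaling was used. Ratios to B cells used CPM + 10 over genes with at least 50 UMIs. IgA and IgG sums were tested across all genes with edgeR 4.0.16 (R 4.3.3, TMM, filterByExpr with a minimum of 5 counts and 15 in total, library as block, Benjamini-Hochberg), tested on simulated data, and with DESeq2 1.42.0 as an alternative. The same library holds both classes of 1 mouse, which is where the pairing comes from. The SE of a log2 fold change was its absolute value divided by the square root of edgeR's F statistic. Shares have 95% Clopper-Pearson intervals. Coordinates are those of GENCODE M21 (GRCm38).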

Additional observations from a re-analysis of the deposited data

How the results depend on the processing

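Pairs of cells share members, so no counting error applies to the shares of V gene pairs. Plasma cell shares, heavy chain classes and cycling shares stayed within counting error under the alternatives run, with 1 exception. The 2FF share was 0.510% with no limit on Cd3 genes and 0.542% with none on Cd3 and C1q genes, both chosen after seeing the data. So were the shares without neutrophils and the ratios to B cells and cycling shares with no limit on Cd3 genes. Also not planned were the other changes of the Cd3 and C1q limits, the other rules for cycling cells and the stricter V gene rule. The same holds for every value with 1 library left out and every alternative of the test between IgA and IgG cells. The immunoglobulin share moved by more than that in 4 libraries. As a median over cells it was 37.6% with 2FF, 39.8% with anti-PD-L1, 47.7% with 2DG plus anti-PD-L1 and 48.0% with 2FF plus anti-PD-L1, and under the stricter gate 33.8%, 38.9% and 41.6% in the first 3. The count of 3 genes between IgA and IgG cells was 2 with no library block (the pairing of both classes within a mouse), 10 without the filter on low counts, 13 with DESeq2 and between 0 and 4 when 1 library was left out. It was 0 without the anti-PD-L1 or the 2DG plus anti-PD-L1 library (64 and 58 genes at an unadjusted p under 0.05), 1 without 2DG and 2 without 2FF. It was 3 with RLE normalization and without cycling cells. Gene ratios between libraries, with their alternatives, were not run, because no library besides 2FF held the 20 plasma cells set as the minimum. The number of cells limits every value of the control and 2FF plus anti-PD-L1 libraries, with 6 and 4 plasma cells, whose median depth (18927.5 and 21956 UMIs) was close to that of all plasma cells.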
